A study of Mus musculus with 9 samples.

Results

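The mouse metalloproteases and their inhibitors are described here as 5 sets of genes. They are the matrix metalloproteases (Mmp genes), the membrane-anchored ADAM proteases, the secreted ADAMTS proteases, the tissue inhibitors Timp1 to Timp4, and Reck, a membrane-anchored inhibitor. Members were picked by gene symbol alone, which gave 80 of the 47729 genes in the count table: 23 Mmp, 33 Adam, 19 Adamts, 4 Timp genes and Reck. Of these, 43 had enough counts to be tested, namely 12 Mmp, 12 Adam and 14 Adamts genes, the 4 Timp genes and Reck.

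RNA was sequenced from 9 mouse cultures, 3 of each of 3 cell types. The libraries labelled NF1 (1, 2 and 3) are tumour cells derived from neural stem cells and carry the genotype label shp53, Nf1-/-, CDK4. The LTR libraries (1, 2 and 3) are tumour cells derived from the same kind of stem cell and labelled lgT/Ras. The NSC libraries (1, 3 and 5) are primary wild-type neural stem cells taken from the subventricular zone, which lines the lateral ventricles and makes new neurons. Every culture was kept in stem cell medium for up to 10 passages. The titles tell the cultures of a group apart only by number, so p-values measure the spread between these cultures. Whether each tumour culture came from its own transformation was not given in the sources used here. Values listed for a group follow that order of cultures.

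Metalloproteases cut proteins with a zinc ion in the active site. Matrix metalloproteases are made as inactive precursors and, once active, degrade collagen, laminin, proteoglycans and other proteins outside the cell. The membrane-type enzymes do so at the cell surface. ADAM proteases release the outer parts of membrane proteins such as Notch receptors, EGF-family ligands and cytokines, and ADAMTS proteases trim procollagens and the proteoglycans that fill the brain matrix. TIMPs bind the active sites of these enzymes, and RECK restrains several of them at the cell surface.

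Total counts ran from 28600479 in LTR 2 to 57231024 in NSC 3, so that 3 counts correspond to 0.0541 to 0.114 CPM (counts per 1000000 library counts, scaled by TMM). NF1 2 stood apart from its group: its log CPM correlated across genes at 0.936 and 0.911 with NF1 1 and NF1 3, which correlated at 0.981 with each other. It correlated with the NSC libraries at 0.886 to 0.892, and NF1 1 and NF1 3 did so at 0.806 to 0.84. NSC 3 correlated at 0.958 and 0.953 with NSC 1 and NSC 5, which correlated at 0.991. Trp53, which the label shp53 names, had 217, 151 and 221 CPM in NF1 and 107, 114 and 101 CPM in NSC, so its mRNA was not below the wild-type level. Nf1 had 59.0, 97.2 and 40.1 CPM in NF1 against 109.6, 82.5 and 114 CPM in NSC, and the removed exons were not given in the sources used here. Cdk4 had 795, 393 and 1124 CPM in NF1 against 334, 456 and 325 CPM in NSC. In the library labelled NF1 2 both Nf1 and Cdk4 lay within the NSC range. The 12 neural stem cell markers summed to 11949, 13587 and 11228 CPM in NF1, 6844, 12699 and 9038 CPM in LTR, and 14371, 14599 and 13770.0 CPM in NSC. Of the 12, 0 rose, 6 fell and 6 missed an adjusted p of 0.05 in NF1, and 1 rose (Pax6), 7 fell and 4 missed it in LTR. Of all genes tested against NSC, 10.1% rose and 13.1% fell in NF1, and 14.9% rose and 20.9% fell in LTR. Vim made up most of the tumour sums, at 10708, 10039 and 10373 CPM in NF1, 6073, 11413 and 7980.1 CPM in LTR, and 7408, 6134 and 7443 CPM in NSC. Slc1a3, which fell in both lines, had 0.174, 4.77 and 0.341 CPM in NF1, 0, 0.114 and 0.0896 CPM in LTR, and 734, 920.5 and 660.0 CPM in NSC, and Fabp7, which fell in LTR, had 4.96, 343 and 1.74 CPM in NF1, 1.57, 11.6 and 10.4 CPM in LTR, and 2796, 4295 and 2364 CPM in NSC. The 12 fibroblast and mural cell markers summed to 13.4, 53.3 and 15.9 CPM in NF1, 159, 45.5 and 22.3 CPM in LTR, and 2105, 401 and 2649 CPM in NSC. Of the 9 that could be tested, 1 rose, 7 fell and 1 missed an adjusted p of 0.05 in NF1, and 2 rose and 7 fell in LTR. These counts are to be read against the same shares of all genes, and the markers that rose ran against the sum. Col1a1 alone had 487, 16.5 and 621 CPM in NSC. Column names give the NSC libraries another lane number than the tumour libraries, which means that in comparisons with NSC lane cannot be told apart from group.

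Most metalloprotease and inhibitor genes that changed were lower in the tumour lines than in wild-type stem cells, among them the membrane-type enzymes Mmp14, Mmp15 and Mmp16, while the inhibitor Timp1 was higher. In NF1 against NSC, 4 of the 43 genes tested rose, 16 fell and 23 missed an adjusted p of 0.05. Of all genes tested 23.1% passed there, 10.1% higher and 13.1% lower. In LTR against NSC, 4 rose, 24 fell and 15 missed the threshold, beside 35.9% of all genes, 14.9% higher and 20.9% lower. The NF1 libraries lay wholly above NSC for 6 genes and wholly under it for 18, beside 18.7% and 23.7% of all genes. The LTR libraries did so for 7 and 25 genes, beside 26.9% and 32% of all genes. The median log2 fold change of the 43 genes was -1.24 in NF1 and -1.92 in LTR, beside 0 and -0.06 over all 15696 genes tested. The 2 comparisons share the NSC libraries. Genes higher in both lines were Timp1, Mmp10 and Adam11. Adam8 passed as higher in NF1 and Adam4 in LTR, and none passed in opposite directions. Mmp10 and Adam4 had enough counts to be tested only through tumour libraries, and members such as Adamts12 and Adamts20 only through NSC. Lower in both lines were 15 genes, and a further 9 were lower in LTR and 1, Adamts8, in NF1. Fewer cells of a type and less RNA per cell cannot be told apart in these bulk libraries.

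**Figure D1:**
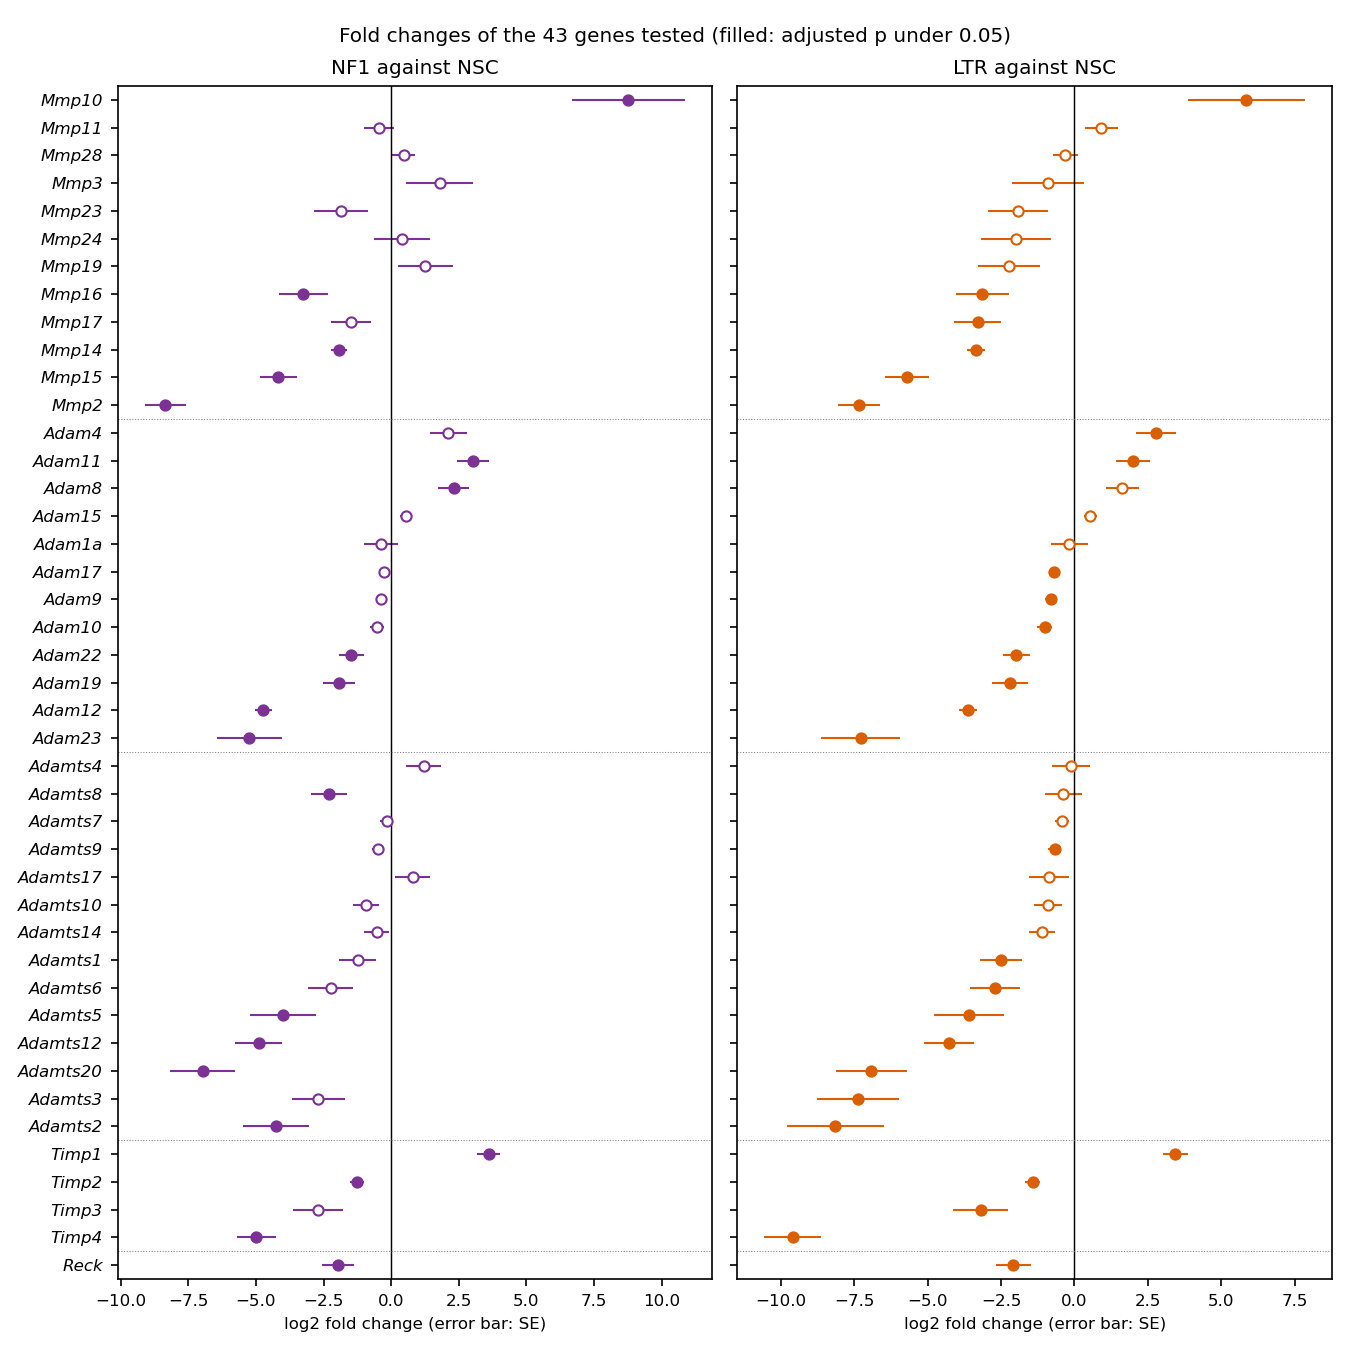
Log2 fold change of each of the 43 genes tested, NF1 against NSC on the left and LTR against NSC on the right, with the SE as a bar, grouped by family; filled points have an adjusted p under 0.05. Most filled points lie left of 0, and Mmp10, Adam11 and Timp1 are filled right of 0 in both panels.

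Family totals on a length-adjusted scale (RPKM, CPM per kilobase of annotated exon) differed between the sets. The 7 membrane-bound Mmp genes summed to 20.1, 34.3 and 11.6 RPKM in NF1, 7.53, 8.84 and 8.56 RPKM in LTR, and 118, 144 and 119 RPKM in NSC. No tumour library came near an NSC library. The 33 Adam genes summed to 126, 164 and 102 RPKM in NF1, 108, 93.3 and 100.3 RPKM in LTR, and 191, 204 and 183 RPKM in NSC, also without overlap. The 19 Adamts genes summed to 39.9, 111 and 25.7 RPKM in NF1, 32.8, 36.3 and 37.4 RPKM in LTR, and 75.5, 84.7 and 71.5 RPKM in NSC. NF1 2 exceeded every NSC library and the other tumour libraries lay below them. The 16 secreted Mmp genes were the lowest enzyme set in all libraries but NF1 2, at 4.53, 41.6 and 4.82 RPKM in NF1, 7.44, 7.85 and 4.43 RPKM in LTR, and 19.8, 10.4 and 29.2 RPKM in NSC. Here too NF1 2 was the highest library. The sum of the 4 Timp genes ran the other way, at 313, 514 and 490.2 RPKM in NF1, 246, 618 and 308 RPKM in LTR, and 177, 96.9 and 191 RPKM in NSC, higher in every tumour library. That rise was Timp1 alone, and Timp2, Timp3 and Timp4 had lower mean RPKM in both tumour lines than in NSC. It also rests on the length scaling, since Timp1 has 888 exonic bases and Timp3 has 8144. Per unit length Timp1 was the most abundant member in both tumour lines, with a mean of 398 RPKM in NF1 and 355 RPKM in LTR, against 32.8 RPKM in NSC. Adam10 followed with 53.1 RPKM in NF1 and 37.8 RPKM in LTR, against 76.9 RPKM in NSC. In NSC the most abundant members were Timp2 (88.4 RPKM), Adam10 and Mmp14 (67.8 RPKM).

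**Figure D2:**
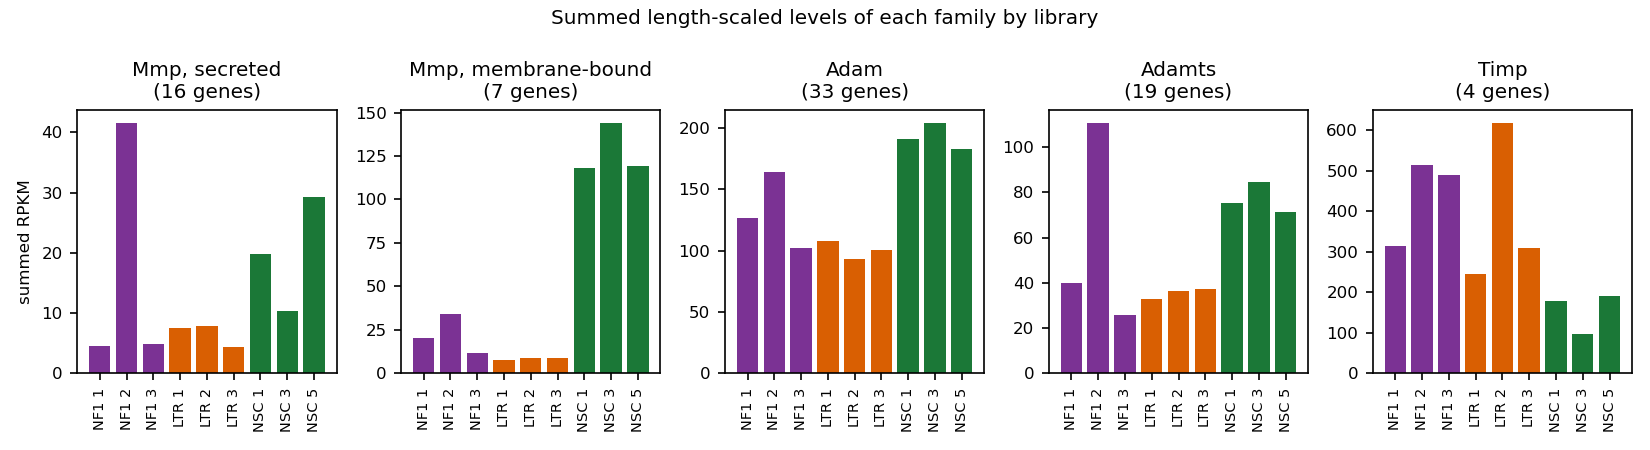
Summed RPKM of each family in each of the 9 libraries (1 bar per library, no error bar), tumour libraries left of NSC. The membrane-bound Mmp bars are low in all 6 tumour libraries, the NF1 2 bar is the tallest for secreted Mmp and Adamts genes, and the Timp bars are taller in all tumour libraries than in NSC. Timp1 makes up most of each tumour Timp bar.

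Timp1 rose in both tumour lines, whereas Timp2, Timp4 and Reck fell in both and Timp3 fell in LTR. Timp1 (ENSMUSG00000001131, at 20870166 to 20874735 on chromosome X, GRCm38) encodes a secreted inhibitor of most matrix metalloproteases. It had 239.6, 422 and 399 CPM in NF1, 186, 511 and 248 CPM in LTR, and 29.2, 20.7 and 37.5 CPM in NSC. Every tumour library lay above every NSC library (log2 fold change 3.60 ± 0.44, adjusted p = 0.00146 in NF1, and 3.44 ± 0.43, adjusted p = 0.00128 in LTR; edgeR quasi-likelihood test), and both calls held under every alternative. Timp1 lies inside an intron of Syn1 on the other strand. Syn1 itself had 20.1, 27 and 15.5 CPM in NF1, 12.7, 17.7 and 14.7 CPM in LTR, and 14.1, 16.9 and 12.6 CPM in NSC. Timp2, which inhibits matrix metalloproteases and also takes part in the activation of pro-MMP2 by MMP14, had 156, 119.6 and 153 CPM in NF1, 117, 163 and 105 CPM in LTR, and 387, 234 and 412 CPM in NSC. All tumour libraries were below all NSC libraries, of which NSC 3 was the lowest (log2 fold change -1.27 ± 0.27, adjusted p = 0.0105 in NF1, and -1.43 ± 0.27, adjusted p = 0.00476 in LTR). Timp2 lost its NF1 call with the replicate number as a block (adjusted p = 0.0685).

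Timp4, an inhibitor with a restricted tissue range that includes the brain (ENSMUSG00000030317, at 115241892 to 115252205 on chromosome 6), was close to absent in LTR. It had 0.695, 2.31 and 0.341 CPM in NF1, 0.0296, 0 and 0.0896 CPM in LTR, and 36.7, 41.9 and 28.3 CPM in NSC. No tumour library overlapped NSC (log2 fold change -4.99 ± 0.72, adjusted p = 0.00258 in NF1, and -9.60 ± 0.96, adjusted p = 0.000646 in LTR). The NF1 value was -6.07 without NF1 2 and the LTR value -10.69 without LTR 3. Timp4 lies within Syn2 on the other strand and shares 90 exonic bases with it. Syn2 had 0.464, 5.89 and 0.205 CPM in NF1, 0.83, 0.42 and 0.209 CPM in LTR, and 28.1, 15.2 and 28.7 CPM in NSC, also without overlap. Timp3, which binds to the matrix and also inhibits ADAM and ADAMTS enzymes, had 27.5, 66.1 and 11.2 CPM in NF1, 52.5, 9.84 and 11.6 CPM in LTR, and 316, 52.1 and 312 CPM in NSC. NSC 3 lay within the range of the tumour libraries, so the groups overlapped (log2 fold change -2.70 ± 0.92, adjusted p = 0.0601 in NF1, and -3.20 ± 0.94, adjusted p = 0.0265 in LTR), the LTR value was -4.38 without LTR 1, and the NF1 value was -3.53 without NF1 2. Timp3 lost its LTR call without NSC 1, NSC 5, LTR 2 or LTR 3 (adjusted p 0.0698 to 0.088, and 0.000447 to 0.088 over all alternatives). Timp3 in NF1 passed without NSC 3, LTR 1 or NF1 2 and under no filter, DESeq2 or limma-voom (adjusted p 0.00417 to 0.0456, and 0.00417 to 0.163 over all alternatives). Its exons share 1733 bases with Syn3 on the other strand, which had at most 2.37 CPM in any library. Reck, the membrane-anchored inhibitor, had 1.3, 2.05 and 1.47 CPM in NF1, 1.72, 0.877 and 1.88 CPM in LTR, and 9.48, 1.99 and 7.51 CPM in NSC. NSC 3 was again far below NSC 1 and NSC 5 and lay under the highest NF1 library (log2 fold change -1.97 ± 0.59, adjusted p = 0.0407 in NF1, and -2.08 ± 0.60, adjusted p = 0.0245 in LTR). Reck lost its NF1 call without NSC 1, NSC 5, LTR 1, LTR 3, NF1 1 or NF1 3 and under limma-voom or a fit of only the 6 libraries compared (adjusted p 0.0577 to 0.152, and 0.00203 to 0.266 over all alternatives). Reck lost its LTR call without NSC 1, NSC 5, LTR 1, LTR 2 or LTR 3 and under limma-voom (adjusted p 0.0578 to 0.0967, and 0.00106 to 0.163 over all alternatives). The low value of NSC 3 for Timp3 and Reck goes with its fibroblast and mural cell marker sum, 401 CPM against 2105 and 2649 CPM in NSC 1 and 5. The part of such cells in these results was not tested.

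**Figure D3:**
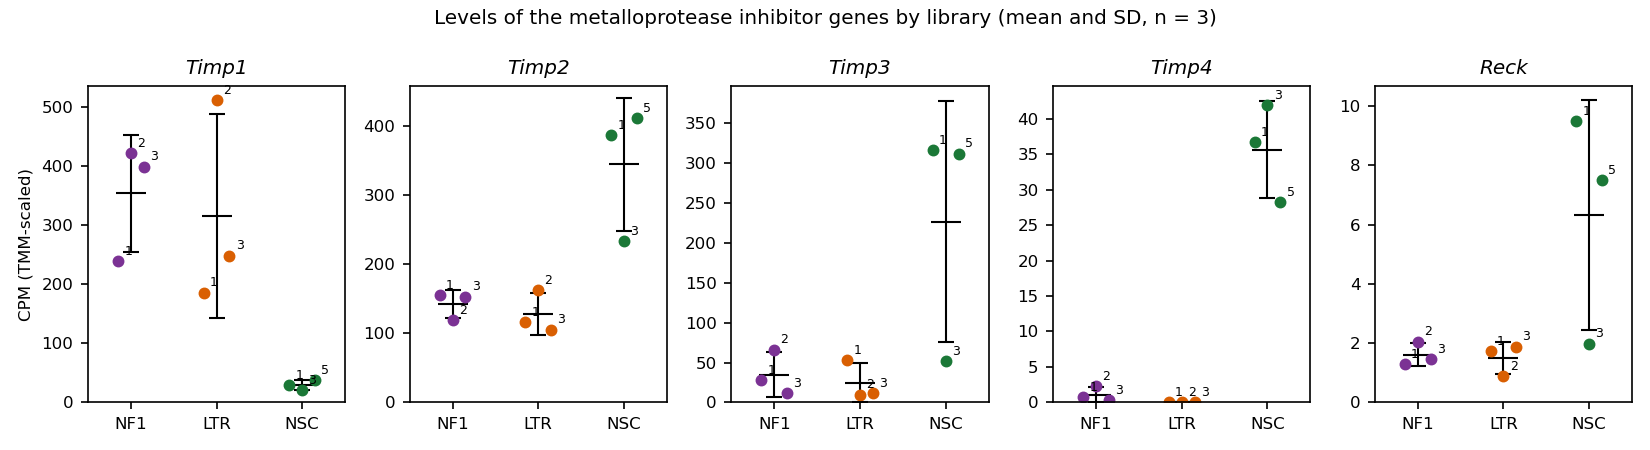
CPM of the 5 inhibitor genes in each library (points, numbered by culture), with the mean and SD of each group (n = 3). Timp1 is high in all 6 tumour libraries, Timp2 and Timp4 are low in them, and for Timp3 and Reck the NSC 3 point sits near the tumour libraries.

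Of the membrane-type matrix metalloproteases, Mmp14, Mmp15 and Mmp16 fell in both lines and Mmp17 fell in LTR. Mmp14 (ENSMUSG00000000957, at 54431612 to 54445364 on chromosome 14), which cleaves collagen at the cell surface and activates pro-MMP2, had 108, 148 and 62.5 CPM in NF1, 35.2, 42.4 and 40.3 CPM in LTR, and 377, 419 and 417 CPM in NSC. All NSC libraries were far above all tumour libraries, and LTR was below NF1 throughout (log2 fold change -1.93 ± 0.29, adjusted p = 0.00274 in NF1, and -3.36 ± 0.30, adjusted p = 0.00042 in LTR). Mmp15 (ENSMUSG00000031790, at 95352268 to 95375080 on chromosome 8), another transmembrane enzyme of this kind, had 8.98, 35.2 and 4.37 CPM in NF1, 4.98, 5.11 and 6.54 CPM in LTR, and 264, 379.7 and 229 CPM in NSC. The decrease spanned all 6 tumour libraries (log2 fold change -4.17 ± 0.69, adjusted p = 0.00419 in NF1, and -5.71 ± 0.75, adjusted p = 0.00132 in LTR), and in NF1 was -5.43 without NF1 2. Both calls held under every alternative. Mmp16, also a transmembrane enzyme, had 0.522, 6.47 and 0.751 CPM in NF1, 4.09, 2.25 and 2.03 CPM in LTR, and 25.1, 13.2 and 35.4 CPM in NSC. NF1 2 was the highest tumour library and NSC 3 the lowest NSC library (log2 fold change -3.25 ± 0.91, adjusted p = 0.0309 in NF1, and -3.14 ± 0.90, adjusted p = 0.0245 in LTR; NF1 -5.26 without NF1 2). Mmp16 lost its NF1 call without NSC 1, NSC 5, NF1 1 or NF1 3 and under a fit of only the 6 libraries compared (adjusted p 0.0652 to 0.0911, and 9.05e-05 to 0.0911 over all alternatives). Mmp16 lost its LTR call without NSC 1, NSC 5, LTR 2 or LTR 3 (adjusted p 0.058 to 0.0827, and 0.000166 to 0.0827 over all alternatives). Mmp17, which is anchored by a lipid, had 1.62, 11.7 and 1.23 CPM in NF1, 1.25, 1.14 and 1.7 CPM in LTR, and 14.8, 11.7 and 13.9 CPM in NSC. In LTR the decrease was uniform, whereas NF1 2 lay just under the NSC range and NF1 as a group did not pass (log2 fold change -1.48 ± 0.75, adjusted p = 0.177 in NF1, and -3.30 ± 0.81, adjusted p = 0.0134 in LTR). Mmp17 in NF1 passed without NF1 2 and under limma-voom (adjusted p 0.000273 to 0.0232, and 0.000246 to 0.373 over all alternatives). Its log2 fold change in NF1 was -3.22 without NF1 2. Mmp23 and Mmp24 had at most 1.58 and 0.96 CPM in any library and did not pass in either line, and Mmp25 was not tested.

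**Figure D4:**
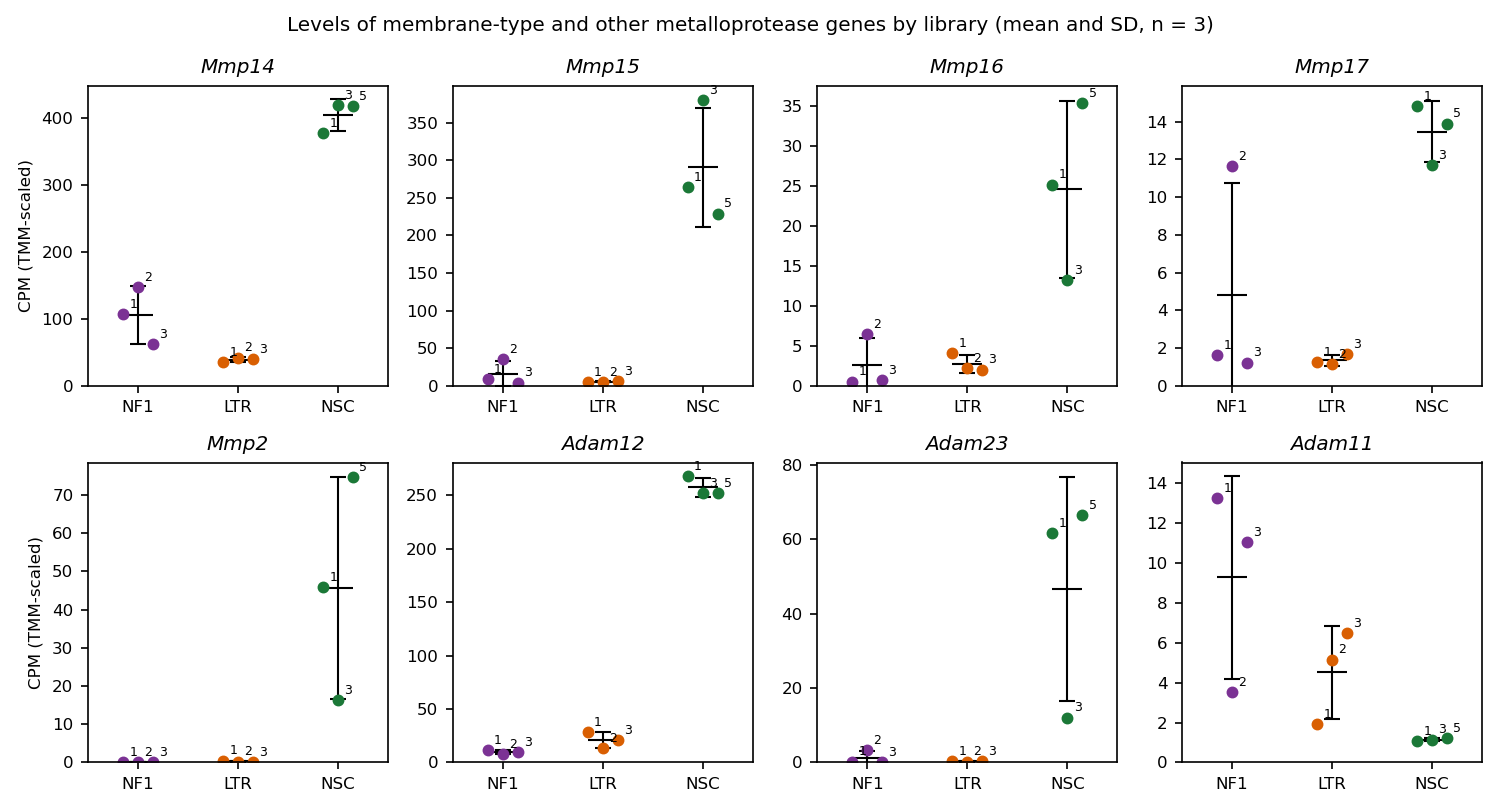
CPM of 8 metalloprotease genes in each library (points, numbered by culture), with the mean and SD of each group (n = 3). In NF1 the lower bars of Mmp15, Mmp16, Mmp17 and Adam23 are cut at 0. Mmp14, Mmp15, Mmp16, Mmp2, Adam12 and Adam23 are low in all tumour libraries, Mmp17 is low in all but NF1 2, and Adam11 is higher in the tumour libraries.

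Among the secreted enzymes Mmp2 fell and Mmp10 rose. Mmp2 (ENSMUSG00000031740, at 92827291 to 92853420 on chromosome 8), the gelatinase that MMP14 activates, had 0.145, 0.16 and 0.102 CPM in NF1, 0.474, 0.229 and 0.119 CPM in LTR, and 45.9, 16.4 and 74.7 CPM in NSC. It was near the floor in every tumour library (log2 fold change -8.35 ± 0.77, adjusted p = 0.000509 in NF1, and -7.35 ± 0.72, adjusted p = 0.000582 in LTR; LTR -8.02 without LTR 1), and both calls held under every alternative. NSC 3 had the lowest Mmp2 level of the NSC libraries, as it had the lowest fibroblast and mural cell marker sum, and the part of such cells was not tested. Mmp14 and Mmp15 were as high in NSC 3 as in NSC 1 and 5. Mmp10 (ENSMUSG00000047562, at 7502352 to 7510240 on chromosome 9), a stromelysin, had 0.898, 24.3 and 0.171 CPM in NF1, 1.13, 1.75 and 0.478 CPM in LTR, and 0, 0 and 0.0536 CPM in NSC. The NSC libraries together held 2 counts, so the change is given as a ratio of summed counts with its 95% counting interval. It was 546 (151 to 4519.6) in NF1 and 69.8 (18.8 to 584) in LTR (adjusted p = 0.0176 in NF1 and 0.0465 in LTR). Intervals and floors cover counting error only. Most of the NF1 counts came from NF1 2: the fitted log2 fold change was 8.77 in NF1 with all libraries, 8.12 without NSC 3 and 11.22 without NSC 5 and 4.83 without NF1 2. Mmp10 lost its NF1 call without NSC 1 or NSC 5 and under limma-voom (adjusted p 0.06 to 0.0691, and 9.79e-05 to 0.0744 over all alternatives). Mmp10 lost its LTR call without NSC 1, NSC 3, NSC 5, LTR 1, LTR 2 or LTR 3 and under limma-voom (adjusted p 0.0583 to 0.127, and 0.00289 to 0.127 over all alternatives). The fitted value in LTR was 5.85 with all libraries and 8.30 without NSC 5. Mmp9, the other gelatinase, had at most 12 counts in any library and was not tested.

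The remaining secreted enzymes with tested levels did not pass. Mmp11, a stromelysin-like enzyme activated inside the cell, had 3.13, 1.86 and 7.03 CPM in NF1, 10.5, 11.9 and 8.33 CPM in LTR, and 5.72, 2.45 and 8.18 CPM in NSC. All LTR libraries were above NSC, and NF1 overlapped it (log2 fold change -0.44 ± 0.56, adjusted p = 0.589 in NF1, and 0.91 ± 0.56, adjusted p = 0.222 in LTR; NF1 -1.12 without NF1 3). Mmp28, also known as epilysin, had 6.32, 10.3 and 4.78 CPM in NF1, 5.99, 3.7 and 2.87 CPM in LTR, and 5.35, 3.93 and 6.33 CPM in NSC. The groups overlapped (log2 fold change 0.46 ± 0.42, adjusted p = 0.452 in NF1, and -0.31 ± 0.42, adjusted p = 0.582 in LTR). Mmp19 had 3.48, 48 and 1.84 CPM in NF1, 2.37, 1.53 and 0.806 CPM in LTR, and 6.88, 9.78 and 5.39 CPM in NSC. NF1 2 lay above NSC and the other tumour libraries lay under it (log2 fold change 1.27 ± 1.02, adjusted p = 0.382 in NF1, and -2.23 ± 1.06, adjusted p = 0.127 in LTR). Without NF1 2 the Mmp19 value in NF1 was -1.45 (adjusted p = 0.0514, and 0.0514 to 0.942 over all alternatives). Mmp19 in LTR passed without NF1 2 and under a fit of only the 6 libraries compared (adjusted p 0.00452 to 0.00729, and 0.00452 to 0.29 over all alternatives). Mmp19 shares 1001 exonic bases with genes on the other strand, and the library kit does not keep the strand, so its counts are uncertain.

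NF1 2 held the highest level of any library for a group of matrix-degrading enzymes. It exceeded the highest of the other 8 libraries by 13.9 times for Mmp10, 8.66 times for Mmp3, 4.91 times for Mmp19, 3.01 times for Adamts4 and 2.42 times for Mmp24. Mmp24 had 30 counts in NF1 2 and shares 637 exonic bases with a gene on the other strand, so its counts are uncertain. The share of all genes with such an excess in NF1 2 was not computed. NF1 2 was the highest of the 6 tumour libraries for 28 of the 43 genes tested, beside 38% of all genes. Mmp3, another stromelysin, had 0.348, 14.4 and 0.717 CPM in NF1, 0.682, 1.56 and 0.179 CPM in LTR, and 1.27, 1.53 and 1.66 CPM in NSC. NF1 2 alone lay above the NSC range (log2 fold change 1.79 ± 1.23, adjusted p = 0.309 in NF1, and -0.89 ± 1.23, adjusted p = 0.591 in LTR; LTR -1.67 without LTR 2 and -0.28 without LTR 3). The Mmp3 value in NF1 was -1.48 without NF1 2 (adjusted p = 0.16, and 0.16 to 0.981 over all alternatives). Mmp1a, an interstitial collagenase gene that GENCODE M21 lists as a polymorphic pseudogene, had 140 counts in NF1 2, 0 in NF1 1 and NF1 3, 1, 4 and 1 in LTR, and 0 in every NSC library. This puts its summed NF1 level, which comes from NF1 2 alone, at least 64.1-fold above a floor of 3 counts over NSC. Reads of Mmp1a and its close copy Mmp1b may be split between them, and Mmp1b had 8 counts in NF1 2 and 8 and 4 in LTR 1 and 2. Mmp12, the macrophage elastase, had 13 counts in NF1 2 and 0 elsewhere. NF1 2 also had the highest sum of the 10 endothelial markers, at 45.4, 164 and 25 CPM in NF1, 29.5, 33.1 and 39.6 CPM in LTR, and 8.02, 9.66 and 8.18 CPM in NSC. Flt1 made up 155 CPM of the NF1 2 sum, while Pecam1 stayed at or under 0.402 CPM in all libraries. The 12 microglia and myeloid markers summed to 7.19, 24.2 and 7.51 CPM in NF1, 3.82, 8.2 and 5.13 CPM in LTR, and 3.2, 7.25 and 4.59 CPM in NSC. Cd68 made up 22.1 CPM in NF1 2, with Ptprc at 0.128 CPM and Itgam at 0 there. The part of such cells in the NF1 2 levels was not tested.

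**Figure D5:**
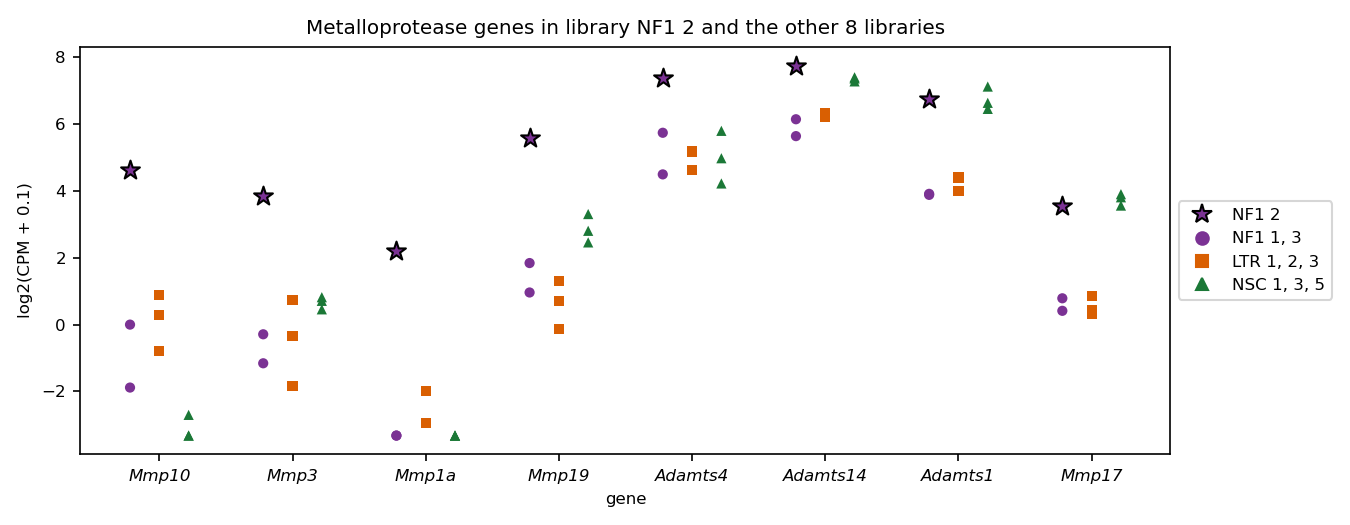
Levels on a log2 scale of 8 metalloprotease genes in NF1 2 (star), the other NF1 libraries (circles), LTR (squares) and NSC (triangles). NF1 2 lies far above all other libraries for Mmp10, Mmp3, Mmp1a, Mmp19 and Adamts4, above NSC by less for Adamts14, and at the level of NSC for Adamts1 and Mmp17.

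Mmp3, Mmp1a and Mmp10 lie next to each other in a run of 10 Mmp genes on chromosome 9 (7272514 to 7699585), and their promoters are shown because these genes were high together in NF1 2. Each window runs from 250 bases before to 50 bases after the RefSeq transcript start (GRCm38.p6), 5′ to 3′ on the gene's strand, with matches to TGANTCA, the AP-1 motif, in capitals:
Mmp10 (chr9:7502092-7502391, strand +): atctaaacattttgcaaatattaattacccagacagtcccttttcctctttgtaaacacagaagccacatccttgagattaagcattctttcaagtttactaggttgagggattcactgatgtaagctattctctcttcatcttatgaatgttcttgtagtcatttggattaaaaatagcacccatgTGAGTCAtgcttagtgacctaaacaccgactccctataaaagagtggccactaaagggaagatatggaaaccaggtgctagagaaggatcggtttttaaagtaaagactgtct
Mmp3 (chr9:7445572-7445871, strand +): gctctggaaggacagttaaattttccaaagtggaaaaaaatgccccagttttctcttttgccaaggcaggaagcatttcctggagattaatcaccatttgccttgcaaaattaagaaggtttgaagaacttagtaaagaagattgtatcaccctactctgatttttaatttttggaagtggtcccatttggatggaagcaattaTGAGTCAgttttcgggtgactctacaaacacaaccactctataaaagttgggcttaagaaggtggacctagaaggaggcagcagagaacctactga
Mmp1a (chr9:7463891-7464190, strand +): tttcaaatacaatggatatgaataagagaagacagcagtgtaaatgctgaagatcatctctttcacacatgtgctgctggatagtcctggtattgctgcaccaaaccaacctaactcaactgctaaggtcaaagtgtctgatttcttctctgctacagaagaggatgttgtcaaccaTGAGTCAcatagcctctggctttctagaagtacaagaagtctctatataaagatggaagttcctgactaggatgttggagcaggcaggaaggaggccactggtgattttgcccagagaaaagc
The match begins 63 bases before the start in Mmp10, 46 before it in Mmp3 and 73 before it in Mmp1a. The motif is its own reverse complement, so both strands were searched at once. It occurred in 8 of the 10 Mmp genes of the run, against 0 of the 8 Mmp genes elsewhere that had a window. Windows of the run held 37.7% to 52% G and C and those elsewhere 54.3% to 80%, so the 2 sets differ in base content. Over all members it occurred in 13 of 55 windows (23.6%), and over all 32851 RefSeq windows of this length in 7.81%. The Timp1 window held no match. Among genes of the run with a match, Mmp13, Mmp7 and Mmp20 had at most 6 counts in any library. A match is a description of these letters and not a site.

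The broadly expressed ADAM sheddases Adam10, Adam17 and Adam9 fell in LTR and missed the threshold in NF1. Adam10 (ENSMUSG00000054693, at 70678997 to 70780229 on chromosome 9), which cleaves Notch receptors and N-cadherin, had 264, 344 and 175 CPM in NF1, 215, 147 and 195 CPM in LTR, and 358, 444 and 331 CPM in NSC. LTR lay below NSC in every library, and NF1 2 reached the NSC range (log2 fold change -0.53 ± 0.27, adjusted p = 0.176 in NF1, and -1.02 ± 0.27, adjusted p = 0.0185 in LTR). Adam17 (ENSMUSG00000052593, at 21323509 to 21373632 on chromosome 12), which releases TNF and EGF-family ligands, had 86.6, 107 and 72.3 CPM in NF1, 59.2, 66.6 and 69.1 CPM in LTR, and 104, 110.5 and 103 CPM in NSC. The LTR libraries were again all below NSC, with NF1 2 among the NSC values (log2 fold change -0.25 ± 0.18, adjusted p = 0.324 in NF1, and -0.70 ± 0.18, adjusted p = 0.0165 in LTR). Adam9, another sheddase, had 149, 201 and 143 CPM in NF1, 139.5, 106 and 119 CPM in LTR, and 219, 191 and 221 CPM in NSC. LTR was under NSC in every library and NF1 2 within the NSC range (log2 fold change -0.36 ± 0.19, adjusted p = 0.208 in NF1, and -0.79 ± 0.20, adjusted p = 0.014 in LTR). Adam15, which binds integrins, had 106, 127 and 97.5 CPM in NF1, 88.8, 139.6 and 94.2 CPM in LTR, and 70.5, 85.7 and 67.6 CPM in NSC. Every tumour library exceeded NSC, but neither line passed (log2 fold change 0.56 ± 0.22, adjusted p = 0.0916 in NF1, and 0.53 ± 0.22, adjusted p = 0.0857 in LTR). Adam10 lost its LTR call without NSC 3, LTR 2 or LTR 3 (adjusted p 0.0635 to 0.0747, and 0.00539 to 0.0747 over all alternatives). Adam10 in NF1 passed without NF1 2 (adjusted p = 0.0383, and 0.0383 to 0.419 over all alternatives). Adam17 lost its LTR call without NSC 1, NSC 3, LTR 1, LTR 2 or LTR 3 (adjusted p 0.0516 to 0.0656, and 0.00495 to 0.0656 over all alternatives). Adam9 lost its LTR call without NSC 1, NSC 5, LTR 2 or LTR 3 (adjusted p 0.0512 to 0.0706, and 0.00325 to 0.083 over all alternatives). Adam9 in NF1 passed without NF1 2 (adjusted p = 0.0478, and 0.0478 to 0.443 over all alternatives). Adam15 in LTR passed without NSC 3 (adjusted p = 0.043, and 0.0265 to 0.435 over all alternatives). Adam15 in NF1 passed without LTR 2 (adjusted p = 0.0265, and 0.0265 to 0.387 over all alternatives). Adam15 shares 1263 exonic bases, and Adam17 311, with a gene on the other strand.

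The meltrins Adam12 and Adam19 and the catalytically inactive Adam22 and Adam23 fell in both lines. Adam12 (ENSMUSG00000054555, at 133883199 to 134232146 on chromosome 7), meltrin alpha, a protease studied in muscle fusion, had 11.6, 7.65 and 9.73 CPM in NF1, 28.2, 13.1 and 20.8 CPM in LTR, and 268, 252 and 252 CPM in NSC. All NSC libraries stood near each other and far above the tumour libraries (log2 fold change -4.73 ± 0.32, adjusted p = 0.000163 in NF1, and -3.63 ± 0.30, adjusted p = 0.000305 in LTR), under every alternative. Adam19, meltrin beta, had 9.36, 22.6 and 3.96 CPM in NF1, 7.2, 11.9 and 10.4 CPM in LTR, and 33.6, 74.1 and 27.7 CPM in NSC. The groups did not overlap, and NF1 2 was the highest tumour library (log2 fold change -1.92 ± 0.60, adjusted p = 0.0473 in NF1, and -2.20 ± 0.61, adjusted p = 0.0215 in LTR; NF1 -1.30 without NSC 3 and -2.75 without NF1 2). Adam19 lost its NF1 call without NSC 1, NSC 3, NSC 5, LTR 1, LTR 2, LTR 3, NF1 1 or NF1 3 and under a fit of only the 6 libraries compared (adjusted p 0.0576 to 0.141, and 0.00331 to 0.141 over all alternatives). Adam19 lost its LTR call without NSC 3, LTR 1, LTR 2 or LTR 3 (adjusted p 0.0531 to 0.0719, and 0.00124 to 0.0719 over all alternatives). The LTR value of Adam19 was -1.51 without NSC 3. Adam22 and Adam23 lack protease activity and act as neuronal receptors of LGI1. Adam22 had 13, 29.1 and 8.5 CPM in NF1, 15.2, 7.44 and 13.1 CPM in LTR, and 55.1, 34.1 and 52.1 CPM in NSC. Every tumour library was under NSC (log2 fold change -1.48 ± 0.46, adjusted p = 0.0445 in NF1, and -1.98 ± 0.46, adjusted p = 0.0114 in LTR; NF1 -2.11 without NF1 2). Adam22 lost its NF1 call without NSC 1, NSC 5, LTR 1, LTR 3, NF1 1 or NF1 3 and under a fit of only the 6 libraries compared (adjusted p 0.0564 to 0.138, and 0.00152 to 0.138 over all alternatives). Adam23 (ENSMUSG00000025964, at 63445891 to 63596276 on chromosome 1) had 0.203, 3.39 and 0.102 CPM in NF1, 0.356, 0.229 and 0.299 CPM in LTR, and 61.6, 12.1 and 66.4 CPM in NSC. It was near the floor in the tumour libraries except NF1 2, and NSC 3 was the lowest of NSC (log2 fold change -5.24 ± 1.20, adjusted p = 0.0149 in NF1, and -7.28 ± 1.35, adjusted p = 0.00451 in LTR; NF1 -8.18 without NF1 2).

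Adam11 rose in both lines, Adam8 in NF1 and Adam4 in LTR. Adam11, another inactive neuronal member, had 13.2, 3.52 and 11.1 CPM in NF1, 1.93, 5.15 and 6.48 CPM in LTR, and 1.09, 1.14 and 1.21 CPM in NSC. Every tumour library exceeded NSC, though NF1 2 and LTR 1 by the least (log2 fold change 3.02 ± 0.60, adjusted p = 0.0087 in NF1, and 1.98 ± 0.58, adjusted p = 0.0271 in LTR). Adam11 lost its LTR call without NSC 1, NSC 3, NSC 5, LTR 2 or LTR 3 and under limma-voom (adjusted p 0.0556 to 0.0862, and 0.00274 to 0.0988 over all alternatives). Adam8, a protease first described in myeloid cells, had 5.27, 12.8 and 4.81 CPM in NF1, 8.27, 2.98 and 3.08 CPM in LTR, and 2.14, 1.26 and 1.21 CPM in NSC. No tumour library overlapped NSC (log2 fold change 2.31 ± 0.58, adjusted p = 0.0217 in NF1, and 1.63 ± 0.57, adjusted p = 0.0501 in LTR). Adam8 lost its NF1 call without NSC 5 (adjusted p = 0.0835, and 0.000306 to 0.116 over all alternatives). Adam8 in LTR passed without LTR 2, LTR 3, NF1 2 or NF1 3 and under DESeq2 size factors, upper-quartile scaling, no filter, DESeq2 or a fit of only the 6 libraries compared (adjusted p 0.0101 to 0.0481, and 0.0101 to 0.194 over all alternatives). The Adam8 value in LTR was 0.99 without LTR 1. Of the 12 microglia and myeloid markers, C1qa, C1qb, Tyrobp, Cx3cr1, Trem2 and Itgam had 0 counts in all 6 tumour libraries, while NSC 3 held up to 46 counts of them (C1qb). Of the 2 that could be tested, Laptm5 rose in both lines (log2 fold change 2.30 ± 0.64, adjusted p = 0.0303 in NF1, and 2.56 ± 0.64, adjusted p = 0.0146 in LTR) and Cd68 in NF1 (2.35 ± 0.67, adjusted p = 0.0342). Ptprc and Aif1 had at most 0.375 and 0.0794 CPM in any library. Adam4, known from mouse testis, had 0.29, 0.352 and 0.307 CPM in NF1, 0.237, 0.954 and 0.328 CPM in LTR, and 0.106, 0.0541 and 0.0536 CPM in NSC. No library held more than 25 counts, and the tumour libraries lay above NSC (log2 fold change 2.12 ± 0.69, adjusted p = 0.0537 in NF1, and 2.77 ± 0.69, adjusted p = 0.0144 in LTR; LTR 2.07 without LTR 2). NSC held 4, 3 and 2 counts, so Adam4 could be tested only through its tumour counts. Adam4 lost its LTR call without NSC 5 (adjusted p = 0.0611, and 0.00563 to 0.136 over all alternatives). Adam4 in NF1 passed without LTR 2 and under a fit of only the 6 libraries compared (adjusted p 0.0289 to 0.0414, and 0.0289 to 0.253 over all alternatives). Adam4 lies inside Cox16 on the same strand, so its counts are uncertain. Adam1a shares nearly all of its exonic bases with other genes and did not pass in either line.

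ADAMTS genes fell or did not pass, and 0 were higher in either line. Adamts1, which cleaves proteoglycans, had 14.9, 108 and 14.6 CPM in NF1, 15.8, 20.6 and 21 CPM in LTR, and 87.4, 139 and 99.1 CPM in NSC. NF1 2 lay within NSC and all other tumour libraries far under it (log2 fold change -1.24 ± 0.69, adjusted p = 0.213 in NF1, and -2.50 ± 0.72, adjusted p = 0.0242 in LTR; NF1 -2.87 without NF1 2). Adamts1 lost its LTR call without NSC 3, NSC 5, LTR 1, LTR 2 or LTR 3 (adjusted p 0.0511 to 0.0744, and 4.84e-05 to 0.0744 over all alternatives). Adamts1 in NF1 passed without NF1 2 and under limma-voom (adjusted p 0.000112 to 0.0452, and 7.72e-05 to 0.433 over all alternatives). Adamts4, an aggrecanase, had 53.2, 167 and 22.4 CPM in NF1, 24.7, 35.7 and 36.6 CPM in LTR, and 31.3, 55.4 and 18.5 CPM in NSC. The groups overlapped, and NF1 2 was the highest library (log2 fold change 1.20 ± 0.65, adjusted p = 0.202 in NF1, and -0.12 ± 0.64, adjusted p = 0.895 in LTR; NF1 0.12 without NF1 2). Adamts9, a proteoglycanase close to Adamts20, had 85.2, 92 and 54.1 CPM in NF1, 75.9, 61.1 and 65.4 CPM in LTR, and 112, 112 and 97.5 CPM in NSC. Every tumour library was under NSC (log2 fold change -0.48 ± 0.22, adjusted p = 0.14 in NF1, and -0.67 ± 0.22, adjusted p = 0.0396 in LTR). Adamts9 lost its LTR call without NSC 1, NSC 3, NSC 5, LTR 1, LTR 2, LTR 3 or NF1 1 and under no filter (adjusted p 0.0576 to 0.16, and 0.0132 to 0.16 over all alternatives). Adamts20, whose loss gives belted mice, was seen as 1 count in all of NF1 and 1 in all of LTR, against 206 in NSC. The depth-scaled ratio of NSC was 150.1 (26.6 to 5955) over NF1 and 148 (26.2 to 5855) over LTR (adjusted p = 0.00496 in NF1 and 0.00367 in LTR). Adamts8 had 0.927, 0.416 and 0.307 CPM in NF1, 2.02, 3.2 and 1.13 CPM in LTR, and 3.07, 1.19 and 4.02 CPM in NSC. It passed in NF1 and not in LTR (log2 fold change -2.31 ± 0.66, adjusted p = 0.0333 in NF1, and -0.38 ± 0.62, adjusted p = 0.649 in LTR; NF1 -2.91 without NF1 1). Adamts8 lost its NF1 call without NSC 1, NSC 5, LTR 1 or NF1 3 and under a fit of only the 6 libraries compared (adjusted p 0.0511 to 0.115, and 0.00208 to 0.115 over all alternatives). The difference between the lines for Adamts8 did not pass (log2 fold change -1.93 ± 0.65 in NF1 against LTR, adjusted p = 0.384). Adamts5, an aggrecanase, had 0, 0.832 and 0.0341 CPM in NF1, 0.208, 0.572 and 0.388 CPM in LTR, and 3.68, 2.67 and 7.62 CPM in NSC. It was lower in both lines (log2 fold change -4.0 ± 1.22, adjusted p = 0.043 in NF1, and -3.58 ± 1.19, adjusted p = 0.0424 in LTR; NF1 -3.40 without NF1 1 and -7.90 without NF1 2). Adamts6 had 0.753, 3.33 and 0.853 CPM in NF1, 1.96, 0.191 and 1.4 CPM in LTR, and 11.1, 5.31 and 6.95 CPM in NSC. It was lower in LTR (log2 fold change -2.24 ± 0.83, adjusted p = 0.0792 in NF1, and -2.70 ± 0.85, adjusted p = 0.0338 in LTR; NF1 -3.26 without NF1 2, LTR -2.09 without LTR 2). Adamts5 lost its NF1 call without NSC 1, NSC 5, LTR 1, LTR 2, LTR 3, NF1 1 or NF1 3 and under a fit of only the 6 libraries compared (adjusted p 0.0526 to 0.125, and 0.000329 to 0.125 over all alternatives). Adamts5 lost its LTR call without NSC 1, NSC 3, NSC 5, LTR 1, LTR 2 or LTR 3 (adjusted p 0.0501 to 0.122, and 0.00074 to 0.122 over all alternatives). Adamts6 lost its LTR call without NSC 1, NSC 5, LTR 2 or LTR 3 (adjusted p 0.0635 to 0.102, and 0.00164 to 0.102 over all alternatives). Adamts6 in NF1 passed without LTR 2 or NF1 2 and under DESeq2 or limma-voom (adjusted p 0.0109 to 0.0372, and 0.00842 to 0.263 over all alternatives). Adamts17 did not pass in either line.

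The procollagen-processing enzymes Adamts2, Adamts3 and Adamts14 differed in level. Adamts14 had the highest counts of these, at 70.4, 215 and 49.6 CPM in NF1, 73.9, 74.2 and 79.6 CPM in LTR, and 164, 168 and 155 CPM in NSC. LTR lay below NSC and NF1 2 above it, and neither line passed (log2 fold change -0.54 ± 0.45, adjusted p = 0.402 in NF1, and -1.10 ± 0.45, adjusted p = 0.085 in LTR; NF1 -1.42 without NF1 2). Adamts14 in LTR passed without NF1 2 or NF1 3 and under a fit of only the 6 libraries compared (adjusted p 0.000831 to 0.0319, and 0.000831 to 0.188 over all alternatives). Adamts14 in NF1 passed without NF1 2 (adjusted p = 0.000667, and 0.000667 to 0.721 over all alternatives). Adamts2 had 0.058, 0.544 and 0.0341 CPM in NF1, 0, 0.0381 and 0 CPM in LTR, and 5.61, 0.451 and 6.28 CPM in NSC. NSC 3 lay under NF1 2 (in NF1 log2 fold change -4.25 ± 1.22, adjusted p = 0.0344; NF1 -6.34 without NF1 2). LTR held 1 Adamts2 count, so NSC over LTR is given as a ratio of 337 (60.2 to 13350.0), with an adjusted p of 0.00651. Adamts2 lost its NF1 call without NSC 1, NSC 5, LTR 2, NF1 1 or NF1 3 and under limma-voom or a fit of only the 6 libraries compared (adjusted p 0.0523 to 0.108, and 0.000183 to 0.108 over all alternatives). Adamts3, which also cleaves reelin, had 0.058, 0.96 and 0.0683 CPM in NF1, 0.0296, 0 and 0 CPM in LTR, and 2.41, 1.9 and 2.74 CPM in NSC. LTR held 1 count, and NSC over LTR gave a ratio of 213 (38.0 to 8457; adjusted p = 0.00497). In NF1 the Adamts3 difference did not pass (log2 fold change -2.69 ± 0.97, adjusted p = 0.0738, and -5.13 without NF1 2). Adamts3 in NF1 passed without NF1 2 and under DESeq2 or limma-voom (adjusted p 0.000831 to 0.0198, and 0.000633 to 0.172 over all alternatives). Adamts12 had 0.203, 0.096 and 0 CPM in NF1, 0.267, 0.153 and 0.0597 CPM in LTR, and 3.23, 2.56 and 3.7 CPM in NSC. All tumour libraries were far under NSC (log2 fold change -4.90 ± 0.88, adjusted p = 0.00574 in NF1, and -4.28 ± 0.85, adjusted p = 0.00598 in LTR; NF1 -5.91 without NF1 1, LTR -4.88 without LTR 1). Its relative Adamts7 had 37, 40.3 and 26.1 CPM in NF1, 26.9, 28.8 and 31.5 CPM in LTR, and 47.4, 28 and 41.4 CPM in NSC. The groups overlapped and neither line passed (log2 fold change -0.17 ± 0.25, adjusted p = 0.637 in NF1, and -0.42 ± 0.25, adjusted p = 0.209 in LTR). Adamts10, which associates with fibrillin, had 4.23, 8 and 6.01 CPM in NF1, 3.41, 9.84 and 5.46 CPM in LTR, and 13.8, 6.44 and 14.4 CPM in NSC. It did not pass in either line (log2 fold change -0.93 ± 0.48, adjusted p = 0.184 in NF1, and -0.89 ± 0.48, adjusted p = 0.169 in LTR).

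Most of the 37 genes that were not tested are Adam genes. Of these 37, 16 had 0 counts in every library, 13 of them Adam genes and 3 Mmp genes (Mmp7, Mmp21 and Mmp27). A further 21 had some count, with a highest value of 140, that of Mmp1a in NF1 2. Adamts15 had 0 counts in NF1 and 1 in LTR, against 41, 9 and 16 counts in NSC. NSC was at least 16.0-fold above a floor of 3 counts over NF1, and its ratio over LTR was 47.3 (8.19 to 1895). Adamts19 had 0 counts in NF1 and LTR, against 10, 57 and 12 counts in NSC, at least 19.2-fold above the floor over NF1 and 18.9-fold above that over LTR. Adam5, a gene of the male germ line, had at most 3 counts in NF1 and 6 in LTR, against 27, 7 and 48 counts in NSC.

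Between the tumour lines 0 genes passed in edgeR's quasi-likelihood test, among the 43 members or among all 15696 genes tested (0% called). Of the members, 12 had an unadjusted p under 0.05, 9 higher and 3 lower in NF1 than in LTR, beside 7.36% and 2.8% of all genes, and the smallest adjusted p was 0.205. NF1 lay wholly above LTR for 6 members and wholly under it for 3, beside 7.21% and 5.24% of all genes. Mmp14 had 108, 148 and 62.5 CPM in NF1 against 35.2, 42.4 and 40.3 CPM in LTR, without overlap (log2 fold change 1.43 ± 0.28, adjusted p = 0.205, and 0.00241 to 0.613 over all alternatives). Timp4 was at 0.341 to 2.31 CPM in NF1 and 0 to 0.0896 CPM in LTR (4.61 ± 0.91, adjusted p = 0.205, and 0.000269 to 0.613). Adam12 was lower in every NF1 library than in any LTR library (-1.10 ± 0.28, adjusted p = 0.312, and 0.0423 to 0.705). DESeq2 called these 3 genes, Mmp14 and Timp4 higher and Adam12 lower, and edgeR without a filter called Timp4. Over all genes DESeq2 called 333 and limma-voom 1.

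Of the genes that control metalloprotease activity, Plau rose and Cd81 fell in both lines. Of 29 regulators tested out of 33 listed, 5 rose, 5 fell and 19 missed the threshold in NF1, beside 10.1% of all genes higher and 13.1% lower. In LTR 3 rose, 7 fell and 19 missed it, beside 14.9% and 20.9% of all genes. Their median log2 fold change was -0.12 in NF1 and -0.37 in LTR. Over the alternatives 2 to 6 were higher and 4 to 10 lower in NF1, and 1 to 5 higher and 6 to 13 lower in LTR. Plau, the urokinase that activates plasminogen and with it several pro-MMPs, had 56, 99.1 and 56 CPM in NF1, 29, 98.5 and 82.8 CPM in LTR, and 3.02, 2.54 and 4.1 CPM in NSC. It was higher in every tumour library (log2 fold change 4.45 ± 0.50, adjusted p = 0.00116 in NF1, and 4.44 ± 0.50, adjusted p = 0.000853 in LTR). Cd81, a tetraspanin, had 245, 395 and 265 CPM in NF1, 180.0, 192 and 184 CPM in LTR, and 719.6, 820.2 and 677 CPM in NSC. It was lower in every tumour library (log2 fold change -1.29 ± 0.22, adjusted p = 0.00454 in NF1, and -2.00 ± 0.22, adjusted p = 0.000854 in LTR). Pcsk6, a proprotein convertase, was lower in LTR (-3.34 ± 0.45, adjusted p = 0.00146) and in NF1 (-1.82 ± 0.42, adjusted p = 0.0157), a call in NF1 lost without NSC 1, NSC 5 or NF1 1 (adjusted p up to 0.0626, and 0.00027 to 0.0626 over all alternatives). Rhbdf2, the iRhom that carries ADAM17 to the cell surface, was at 0 to 0.064 CPM in NF1 and 2.36 to 3.67 CPM in NSC (-6.84 ± 1.00, adjusted p = 0.00261). Rhbdf2 did not pass in LTR. Tspan5, a tetraspanin partner of ADAM10, was lower in LTR (-0.84 ± 0.17, adjusted p = 0.00609), a call lost with the replicate number as a block (adjusted p = 0.0557). Tspan5 did not pass in NF1. Thbs1, thrombospondin-1, was at 8.26 to 14.3 CPM in NF1 and had 951, 41.4 and 1573 CPM in NSC (-6.16 ± 1.08, adjusted p = 0.00531), with NSC 3 low as for Timp3 and Reck.

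Of 35 tested membrane proteins known to be shed by ADAM10 or ADAM17, 8 rose, 9 fell and 18 missed the threshold in NF1, beside 10.1% of all genes higher and 13.1% lower. In LTR 9 rose, 16 fell and 10 missed it, beside 14.9% of all genes higher and 20.9% lower. Their median log2 fold change was -0.12 in NF1 and -0.87 in LTR. Over the alternatives 5 to 11 were higher and 5 to 17 lower in NF1, and 5 to 11 higher and 10 to 17 lower in LTR. Areg, an EGF receptor ligand released by ADAM17, had 34.4, 36.3 and 53.8 CPM in NF1, 27.2, 70.8 and 43.1 CPM in LTR, and 0.291, 0.253 and 0.402 CPM in NSC. Btc, a ligand released by ADAM10, had 18.4, 26.1 and 16.3 CPM in NF1, 18.1, 11 and 13 CPM in LTR, and 1.01, 1.28 and 0.402 CPM in NSC. Both were higher in all tumour libraries, Areg by 7.04 ± 0.47 in NF1 and 7.22 ± 0.47 in LTR on the log2 scale (adjusted p = 0.000163 in NF1 and 0.000114 in LTR). Btc was higher by 4.49 ± 0.47 in NF1 and 3.96 ± 0.46 in LTR (adjusted p = 0.001 in NF1 and 0.000984 in LTR). Icam1, an adhesion molecule, had 0.058, 0.096 and 0.0341 CPM in NF1, 0.0296, 0 and 0.179 CPM in LTR, and 5.96, 5.05 and 6.54 CPM in NSC. It was near the floor in all tumour libraries (log2 fold change -6.46 ± 0.87, adjusted p = 0.00203 in NF1, and -6.26 ± 0.86, adjusted p = 0.00154 in LTR). Ncam1, another adhesion molecule, had 84.7, 96 and 56.9 CPM in NF1, 74.8, 51.3 and 60.0 CPM in LTR, and 236, 216 and 266 CPM in NSC. It too was lower in all of them (log2 fold change -1.59 ± 0.24, adjusted p = 0.00275 in NF1, and -1.95 ± 0.24, adjusted p = 0.00121 in LTR). Met, the receptor of hepatocyte growth factor, was higher (log2 fold change 1.75 ± 0.22, adjusted p = 0.00161 in NF1, and 1.57 ± 0.22, adjusted p = 0.00156 in LTR). Of 15 other metalloproteases and ADAMTS-like proteins tested out of 21 listed, 0 rose, 3 fell and 12 missed the threshold in NF1, and 1 rose, 8 fell and 6 missed it in LTR, to be read against the same shares of all genes. Their median log2 fold change was -1.04 in NF1 and -0.99 in LTR. Over the alternatives 0 were higher and 2 to 8 lower in NF1, and 0 to 1 higher and 4 to 8 lower in LTR. Papln, papilin, an ADAMTS-like matrix protein, had 1.97, 2.98 and 1.4 CPM in NF1, 0.712, 0.801 and 0.866 CPM in LTR, and 39.6, 56.1 and 37.2 CPM in NSC. No tumour library overlapped NSC (log2 fold change -4.38 ± 0.35, adjusted p = 0.000255 in NF1, and -5.80 ± 0.38, adjusted p = 0.000114 in LTR). Mme, neprilysin, had 0.029, 0.64 and 0 CPM in NF1, 0.089, 0.0381 and 0.0597 CPM in LTR, and 16.8, 3.05 and 27.2 CPM in NSC. NF1 2 was the highest tumour library and NSC 3 the lowest NSC library (log2 fold change -6.12 ± 1.31, adjusted p = 0.0114 in NF1, and -7.87 ± 1.47, adjusted p = 0.00468 in LTR). Adamtsl4 fell in LTR (-2.16 ± 0.49, adjusted p = 0.00998), a call lost with the replicate number as a block (adjusted p = 0.0599). Adamtsl4 did not pass in NF1. Ece1, endothelin-converting enzyme, fell in both lines (log2 fold change -1.04 ± 0.28, adjusted p = 0.0266 in NF1, and -1.12 ± 0.28, adjusted p = 0.0145 in LTR). Ece1 lost its NF1 call without NSC 1, NSC 5 or NF1 1 and in a fit of only the 6 libraries compared (adjusted p up to 0.0878), and its LTR call without NSC 1 or LTR 3 (adjusted p up to 0.0506). Its adjusted p ran from 0.00282 to 0.0878 in NF1 and from 0.000866 to 0.0506 in LTR over all alternatives.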

How the data were processed

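The authors deposited raw gene counts of 9 libraries, 3 of each group. Per the submitters' processing notes, STAR 2.5.2a, HTSeq and DESeq2 1.8.2 were used with GRCm38 and mm10. Annotation release, counting mode and strand setting were not given in the sources used here. Per the labels' protocols, the libraries came from a NEBNext Ultra kit, which is not stranded. Of the 80 members, 20 share exonic bases with another gene (15 of those tested), and their counts are uncertain.

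In R 4.3.3, edgeR 4.0.16 was used to fit the 3 groups on the deposited counts of all 9 libraries, with TMM scaling and filterByExpr at a minimum count of 10, which kept 15696 genes. Groups were compared by quasi-likelihood F tests with Benjamini-Hochberg adjustment over those genes at 0.05. An SE comes from the F statistic. Exon lengths and coordinates come from GENCODE M21, where all 80 identifiers matched, and promoter windows from RefSeq (GRCm38.p6; 55 windows of 50 members). In simulated data, 4-fold changes were called for 44% of the changed genes in NF1 against NSC, 55% in LTR against NSC and 65% in NF1 against LTR, and 2-fold changes for 6%, 4% and 10%. The changes were planted only in genes of higher counts, and no simulated library stood apart as NF1 2 and NSC 3 do. These shares therefore do not hold for low-count members. Chi-square tests of replicate counts gave 14.5 to 436 per degree of freedom, and no library is a copy.

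Members and gene lists were chosen with earlier results of these data known. Named with values were every Timp gene and Reck, members with a group mean of at least 10 CPM, and up to 12 called members per direction by adjusted p. Adamts5, Adamts6, Mmp3, Mmp28 and members given by counts fell outside that rule or were singled out after their values were seen. Up to 4 genes per list with the smallest adjusted p were named, and Lamb1 was added after its values were seen. The 17 alternatives cover scaling, the filter, DESeq2 1.42.0, limma-voom (limma 3.58.1), the libraries fitted, the replicate number as a block and left-out libraries. For most genes, the settings listed as changing a call leave out the block and the fit without both NF1 2 and NSC 3. The adjusted p ranges over all alternatives include them. Leaving out NF1 2 and NSC 3 together, and all alternatives for the lists, were chosen after seeing the data.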

Additional observations from a re-analysis of the deposited data

How the results depend on the processing

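Of the 28 members called in LTR against NSC, 14 kept the call under all 17 alternatives, and of the 20 called in NF1 against NSC, 10 did. The called members kept their direction under every alternative that gave a value. Adam4 and Mmp17 in LTR and Mmp10 in NF1 had none under 1 of the 17. Without NF1 2 20 of the NF1 calls and 28 of the LTR calls held, and without NSC 3 the number was 19 in NF1 and 20 in LTR. In LTR against NSC the higher members numbered 2 under limma-voom, 1 with the replicate block and 1 to 5 with a library left out, and the lower ones 14 (without LTR 3) to 28 with a library left out and 30 without both NF1 2 and NSC 3. Over all genes the LTR count was 3477 with the replicate block, 3281 (without NSC 1) to 7640 (without NF1 2) with a library left out and 8018 without both. In NF1 against NSC the higher members numbered 2 with the replicate block and 2 to 6 with a library left out. The lower ones numbered 9 in a fit of only the 6 libraries compared, 9 (without NSC 5) to 27 (without NF1 2) with a library left out, and 27 without both NF1 2 and NSC 3. Over all genes the NF1 count was 1942 with the block, 1752 to 6900 with a library left out and 7485 without both. In NF1 against LTR, no filter gave 1 higher member and 52 genes, and DESeq2 gave 2 higher members, 1 lower member and 333 genes. Limma-voom gave 1 gene there, left-out libraries 0 to 34 and leaving out both 104. The sign turned only for members that did not pass. In LTR, Adamts4 was -0.43 to 0.50 with a library left out (0.50 without NSC 3, 0.05 without LTR 1) and 0.43 without both NF1 2 and NSC 3, and Mmp28 was -0.65 to 0.02 (without LTR 3). In NF1, Mmp11 was 0.07 with the block. Mmp19 in NF1 was -0.11 under limma-voom, -1.10 with the block, -1.45 (without NF1 2) to 1.76 with a library left out and -1.15 without both. Mmp3 in NF1 was -0.84 with the block, -1.48 (without NF1 2) to 2.35 with a library left out and -1.41 without both, and Mmp28 was -0.02 without both and 0.11 to 0.64 with a library left out. The cause was not tested. Deviations of same-numbered libraries from their group means correlated at -0.185 to 0.121, and those of differently numbered ones at -0.135 to 0.133. With 3 libraries per group this cannot settle whether the numbers pair the libraries, which the labels do not state. With the block 19 of the 28 LTR calls and 14 of the 20 NF1 calls held. Other scalings moved the median of all genes by at most 0.034 on the log2 scale. Genes with about 10 counts in fewer than 3 libraries were not tested, and 2-fold changes were mostly missed in simulated data.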

Other observations

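Most matrix substrates of these enzymes that changed were lower in the tumour lines. Of 23 substrates tested out of 26 listed, 2 rose, 10 fell and 11 missed the threshold in NF1 against NSC, beside 10.1% of all genes higher and 13.1% lower. In LTR against NSC 3 rose, 13 fell and 7 missed it, beside 14.9% and 20.9% of all genes. Their median log2 fold change was -1.71 in NF1 and -1.74 in LTR, beside 0 and -0.06 over all genes tested. Over the alternatives 2 were higher and 8 to 17 lower in NF1, and 3 to 4 higher and 11 to 13 lower in LTR. Spp1, osteopontin, a secreted matrix protein that MMP3 and MMP7 cleave, had 3405, 9375 and 3644 CPM in NF1, 1827, 2651 and 2431 CPM in LTR, and 236, 345 and 209 CPM in NSC. All tumour libraries lay above all NSC libraries (log2 fold change 4.38 ± 0.47, adjusted p = 0.00102 in NF1, and 3.13 ± 0.44, adjusted p = 0.0017 in LTR; edgeR quasi-likelihood test). Lamc1, a laminin chain of the basement membrane, had 127, 127 and 98.3 CPM in NF1, 170.2, 101 and 136 CPM in LTR, and 487, 386 and 489 CPM in NSC. It was lower in every tumour library (log2 fold change -1.95 ± 0.24, adjusted p = 0.00146 in NF1, and -1.74 ± 0.24, adjusted p = 0.00147 in LTR). Lamb1, another laminin chain of the list, ran the other way and was higher in every tumour library. Lamb1 had 607, 716 and 387 CPM in NF1, 455, 420 and 511 CPM in LTR, and 183, 131 and 167 CPM in NSC. Col1a2, a chain of collagen I whose propeptide ADAMTS2 removes, had 0.319, 0.32 and 0.717 CPM in NF1, 0.237, 0.0763 and 0.299 CPM in LTR, and 258, 23.9 and 397 CPM in NSC. It was near the floor in the tumour libraries, and NSC 3 was the lowest of NSC (log2 fold change -8.97 ± 1.09, adjusted p = 0.00146 in NF1, and -10.05 ± 1.15, adjusted p = 0.000939 in LTR). Col1a2 is also one of the 12 fibroblast and mural cell markers, as are Col1a1, Col3a1 and Dcn of the substrate list. The part of such cells in the substrate counts was not tested. Tnr, a glial matrix protein, had 1.33, 2.43 and 0.273 CPM in NF1, 0.385, 0.153 and 0.179 CPM in LTR, and 25.5, 16.3 and 21 CPM in NSC. NF1 2 was the highest tumour library (in LTR -6.41 ± 0.80, adjusted p = 0.00128). Nid2, a basement membrane linker, had 2.58, 1.98 and 3.93 CPM in NF1, 2.52, 6.45 and 4.09 CPM in LTR, and 84.6, 20.8 and 114 CPM in NSC. All tumour libraries lay under all NSC libraries (in NF1 -4.69 ± 0.66, adjusted p = 0.00235). These calls held under every alternative.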
